A study of Mus musculus with 12 samples.

Results

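The interstitial matrix is the network of collagen fibrils, microfibrils, elastic fibres, proteoglycans and matricellular proteins that fibroblast-like cells lay down around an epithelium. In developing salivary glands it is made mainly by the condensed mesenchyme into which the epithelial buds branch. Fibrillar collagens form the tensile scaffold, fibronectin templates its assembly, fibrillins and elastin form elastic fibres, small proteoglycans and minor collagens set fibril diameter, and lysyl oxidases cross-link the fibrils. The 41 genes described here were listed by symbol as fibrillar and other collagens, fibronectin and elastic fibre genes, proteoglycans, matricellular genes, and cross-linking enzymes with the serine protease Fap. All 41 were found among the 52636 gene identifiers of the count table, and all 41 passed the filter on low counts. The filter asks for enough counts in as many libraries as the smallest group holds, whatever their group. A gene that is high in a single group can thus pass.

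RNA was read in 12 libraries of mouse salivary glands from E13.5 embryos (mid-gestation), cultured for 2 days on filters. FGFRi glands (n = 3) were wild type and received 2.5 µM SU5402, an inhibitor of FGF receptor kinases, and DMSO glands (n = 3) were wild type with the solvent alone. HOM glands (n = 2) were K14Cre-Fgfr2b -/-, in which a keratin 14 promoter drives Cre in epithelium to remove the epithelial isoform of FGF receptor 2. HET (n = 2) and WT (n = 2) glands were littermates of the same cross and, like HOM glands, received no agent. The labels do not say whether HET or WT littermates carried Cre, nor which libraries came from separate embryos, so part of the spread that the p-values measure may be technical. Whole glands were used, so mesenchyme, epithelium and other cells share each library, and a larger share of mesenchymal cells cannot be told apart from more matrix RNA per cell.

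Total counts were 6043701 to 22322182 per library. Features resembling ribosomal RNA, mitochondrial rRNA included, took 26.1% to 50.5% of the counts and mitochondrial genes 3.93% to 14.2%, both highest in FGFRi 1, which also had the highest summed matrix level. Counts of Xist and of Y-linked genes marked the HOM libraries as female and all 4 HET and WT libraries as male, so HOM genotype and sex cannot be told apart, while HET and WT did not differ in sex. FGFRi libraries and DMSO 1 and 3 were female and DMSO 2 was male. DMSO was thus the only group with both sexes. Each fit with sex as a covariate therefore took its sex term from DMSO 2 against DMSO 1 and 3. Such a fit cannot separate sex from HOM genotype. Fgfr2 counts cover the whole gene and check nothing about the removed exon. Fgfr2 changed by -0.31 ± 0.075 (log2, SE) in FGFRi against DMSO, with an adjusted p of 0.00944 in edgeR's quasi-likelihood test. Its change in HOM against the HET and WT mean was -0.071, with an adjusted p of 0.685.

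Matrix RNA was higher in FGFRi, HOM and HET glands than in DMSO and WT glands. Summed over the 41 genes, the level was 8118, 6760 and 5950 CPM in FGFRi libraries, against 4042, 4071 and 4102 CPM in DMSO libraries. CPM here are counts scaled to a common library size by TMM, a trimmed mean of ratios between libraries. The same sum was 6217 and 6512 CPM in HOM glands, 6160 and 5746 CPM in HET glands, and 4173 and 4429 CPM in WT glands. HET glands thus stood next to HOM glands and apart from their WT littermates, and DMSO and WT glands were close. General mesenchymal genes moved the same way. Their geometric mean over 16 genes, among them Pdgfra, Prrx1, Zeb2, Cdh11, Cxcl12 and Vim, was 28.7 ± 3.51 CPM in FGFRi and 11.9 ± 1.70 CPM in DMSO (SD, n = 3 each). It was 24.3 ± 0.892 CPM in HOM, 20.2 ± 0.247 CPM in HET and 13.9 ± 0.857 CPM in WT (SD, n = 2 each). The 17 pan-epithelial genes, such as Epcam and Cdh1, were on average lower by 0.44 (log2) in FGFRi than in DMSO and by 0.43 in HOM than in its controls. Of the 20 listed mesenchymal genes, 16 passed the filter and were used.

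**Figure D1:**
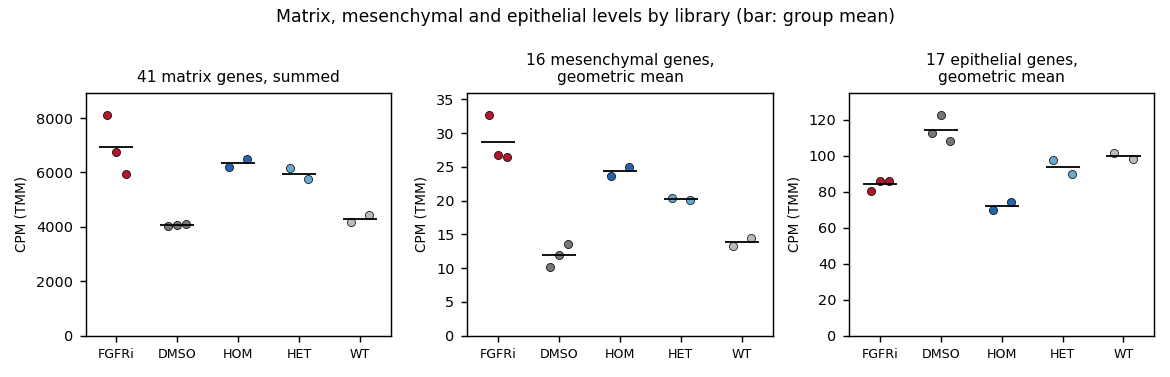
Summed TMM-scaled CPM of the 41 matrix genes, geometric mean CPM of 16 mesenchymal genes and of 17 epithelial genes, with 1 point per library and a bar at the mean of each group. Matrix sums of FGFRi, HOM and HET libraries lie between 5746 and 8118 CPM, all above the 4042 to 4429 CPM of DMSO and WT libraries.

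Of the 41 genes, 31 rose and 1, Crispld2, fell in FGFRi against DMSO at an adjusted p under 0.05. Over all 15859 genes tested, 9.73% rose and 10.7% fell. The median log2 change was 0.82 over the matrix genes and -0.015 over all genes. In HOM glands against the mean of HET and WT, 17 rose and 1, Thbs1, fell, where 3.44% of all genes rose and 2.44% fell. The median log2 change was 0.37, against 0.00055 over all genes. The HOM count was 7 without HOM 1 and 2 without HOM 2, and 0 rose or fell with sex as a covariate, where 10 were higher and 2 lower at an unadjusted p under 0.05 in edgeR's test. The FGFRi count was 30 with sex as a covariate and 30 without the male library DMSO 2. The sex term came from the DMSO libraries alone, so the HOM counts with sex as a covariate rest on how DMSO 2 differed.

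HET glands alone showed much of the rise. In HET against WT, 10 of the 41 genes rose and 0 fell in edgeR's test, where 0.851% of all genes rose and 0.372% fell. At an unadjusted p under 0.05, 24 rose and 0 fell, where 1333 of all 15859 genes rose and 811 fell. The 10 were Col1a1, Col1a2, Col5a1, Col5a2, Col6a1, Col6a2, Col6a3, Fn1, Eln and Spon2. The count was 6 without either HOM library, 2 and 3 without HET 1 and HET 2, and 1 and 2 without WT 1 and WT 2. HOM against WT gave 24 higher and 2 lower (Thbs1 and Fbln2), with 4.49% and 3.06% of all genes. HOM against HET gave 1 higher (Crispld2) and 2 lower (Thbs1 and Spon2), with 0.618% and 0.876% of all genes. DMSO against WT, 2 kinds of control, gave 1 higher (Spon2) and 0 lower, with 1.27% and 0.984% of all genes. At an unadjusted p under 0.05, 3 were higher and 7 lower, where 1134 of all 15859 genes were higher and 1093 lower. DESeq2 also called 1 higher and 0 lower.

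**Figure D2:**
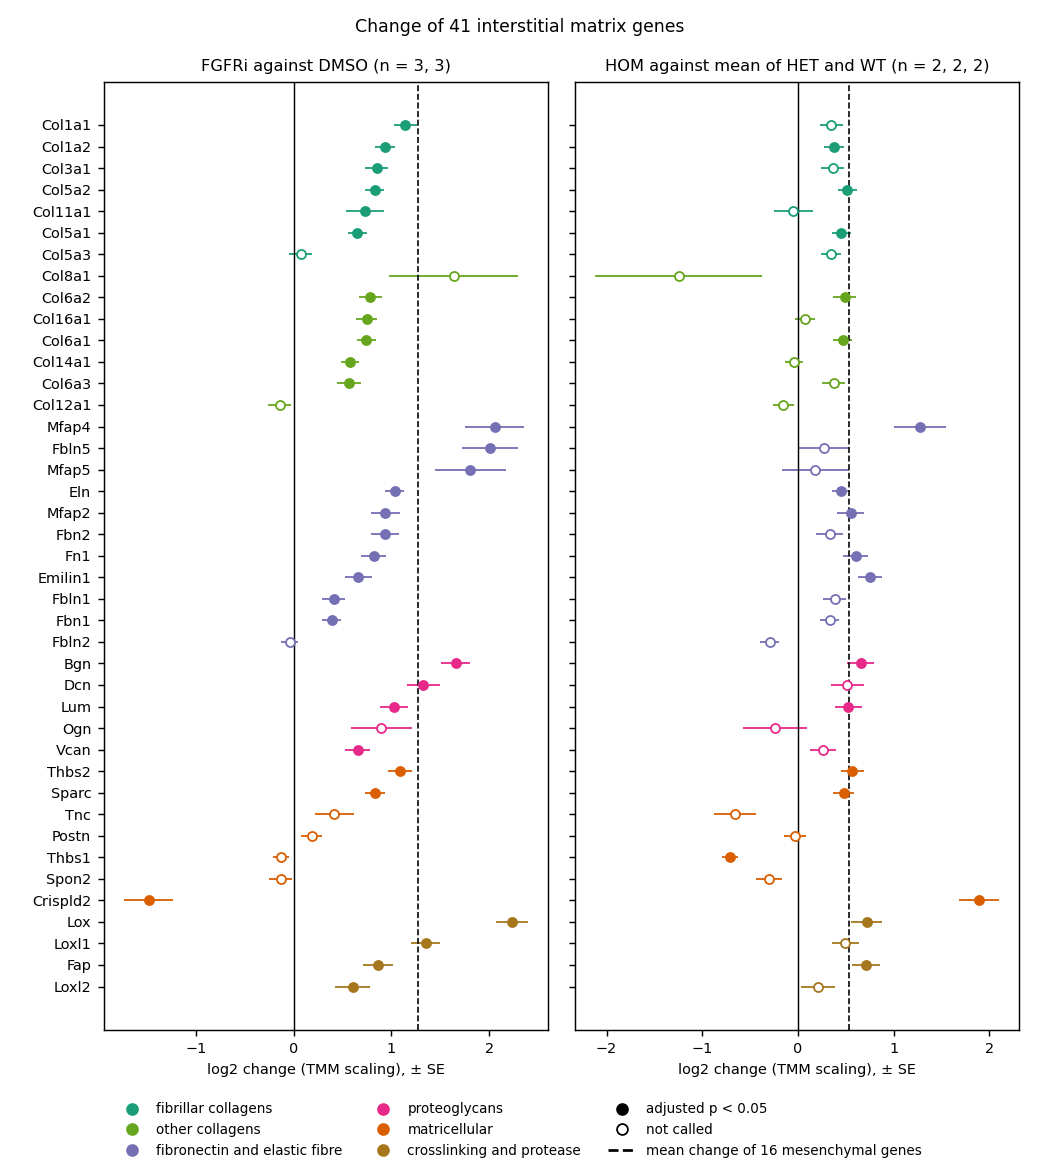
Log2 change of each of the 41 genes with its SE in FGFRi against DMSO (left) and in HOM against the mean of HET and WT (right), coloured by role. Filled points passed an adjusted p of 0.05, and dashed lines mark the mean change of the 16 mesenchymal genes, 1.27 (left) and 0.54 (right). Most points lie between 0 and the dashed line at left, and Crispld2 lies on opposite sides of 0 in the panels.

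Fibrillar collagens made up the largest part of the matrix counts, and 6 of 7 rose in FGFRi glands. Col1a1, the alpha 1 chain of type I collagen, had 1299, 1084 and 872 CPM in FGFRi, against 474, 490.1 and 509 CPM in DMSO. The libraries did not overlap, and the log2 change was 1.14 ± 0.12 (SE, adjusted p = 2.06e-05, edgeR). In the deletion cross Col1a1 had 789 and 876 CPM in HOM, 846 and 800.4 CPM in HET, and 515 and 523 CPM in WT. HOM and HET overlapped, both lay above WT, and the HOM change against both controls was 0.35 ± 0.12 (adjusted p = 0.116). Per kilobase of annotated exon, Col1a1 was the highest of the 41 genes in DMSO, at 74.8 CPM per kb. It was followed by Col3a1 at 68.8, Thbs1 at 51.3 and Sparc at 41.6 CPM per kb. The length joins the exons of all annotated transcripts, 6563 bases for Col1a1, 9816 for Col3a1 and 12426 for Col1a2. The order therefore depends on the annotation and may not hold for the transcripts present.

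Col1a2, Col3a1, Col5a1 and Col5a2 rose by 0.65 to 0.93 in FGFRi. Col11a1, a minor fibrillar chain that nucleates thin fibrils in cartilage and other tissues, had 24.2, 14.7 and 16.3 CPM in FGFRi and 7.63, 10.96 and 13.8 CPM in DMSO. It had 9.42 and 9.995 CPM in HOM, 10.8 and 12.9 CPM in HET, and 9.21 and 7.77 CPM in WT. Its FGFRi change of 0.73 ± 0.20 was called (adjusted p = 0.0173, edgeR), but not without FGFRi 1 or without DMSO 1, where it was as low as 0.55. Col5a3, another type V chain, was the fibrillar collagen that did not pass in FGFRi. It had 13.7, 14.01 and 14.5 CPM in FGFRi, against 15.3, 12.5 and 13.3 CPM in DMSO (change 0.07 ± 0.12, adjusted p = 0.737). In HOM glands it had 26.0 and 26.7 CPM, in HET glands 28.2 and 22.1 CPM, and in WT glands 17.4 and 16.7 CPM. Its HOM libraries thus lay in the HET range and above WT.

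Of the other 7 collagens, 5 rose in FGFRi. The 3 chains of type VI collagen, which forms beaded filaments around cells, moved together. Col6a2 had 291, 226 and 208 CPM in FGFRi and 154, 128 and 138 CPM in DMSO, a change of 0.78 ± 0.12 (adjusted p = 0.000323, edgeR). It had 215 and 254 CPM in HOM, 230.0 and 199 CPM in HET, and 125 and 134 CPM in WT. Col6a3 had 244, 194 and 164 CPM in FGFRi, 149.5, 128 and 127 CPM in DMSO, 224 and 237 CPM in HOM, 236 and 217 CPM in HET, and 127 and 154 CPM in WT. All 3 chains were called in HET against WT, with changes of 0.63 to 0.72.

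The fibril-associated collagens differed from them. Col12a1, which coats type I fibrils, had 20.7, 16.9 and 20.3 CPM in FGFRi and 20.2, 22.2 and 21.1 CPM in DMSO, with no call (-0.14 ± 0.12, adjusted p = 0.437). It had 23.8 and 23.1 CPM in HOM, 33.9 and 27.1 CPM in HET, and 20.5 and 24.2 CPM in WT, so that HET was the highest group. Col14a1, of the same family, had 139.6, 103 and 113 CPM in FGFRi and 81.8, 81.1 and 73.9 CPM in DMSO. In the cross it barely varied, with 95.3 and 94.9 CPM in HOM, 100.7 and 103 CPM in HET, and 93.5 and 93.01 CPM in WT. Col16a1 had 75.7, 70.6 and 57.8 CPM in FGFRi, 35.3, 43.4 and 40.98 CPM in DMSO, 54.9 and 60.96 CPM in HOM, 56.0 and 61.1 CPM in HET, and 54.2 and 49.8 CPM in WT. Col14a1 and Col16a1 rose in FGFRi by 0.58 and 0.75, while their HOM changes were -0.037 and 0.072. Col8a1, a short-chain collagen, was at 0.0798 to 2.93 CPM in the 12 libraries and passed no test. Its counts were 16, 11 and 23 in FGFRi and 1 to 9 in the other libraries, so it passed the filter mainly through FGFRi.

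Fibronectin and the elastic fibre genes included several of the largest changes, and 10 of 11 rose in FGFRi. Fn1, fibronectin, had 241, 220.1 and 172 CPM in FGFRi and 123.5, 121 and 113 CPM in DMSO. It had 279 and 295 CPM in HOM, 258 and 235 CPM in HET, and 118 and 172 CPM in WT, and rose both in HOM (0.61 ± 0.13, adjusted p = 0.0133, edgeR) and in HET against WT (0.77 ± 0.16, adjusted p = 0.0270). Eln, the elastin precursor, had 100.0, 81.8 and 81.5 CPM in FGFRi and 42.6, 42.9 and 42.5 CPM in DMSO, a narrow control range, and changed by 1.03 ± 0.099 (adjusted p = 9.95e-06). In the cross Eln had 81.5 and 96.7 CPM in HOM, 81.2 and 77.5 CPM in HET, and 58.3 and 49.2 CPM in WT.

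Among these genes, Mfap4, Fbln5 and Mfap5, all at low levels, rose most in FGFRi. Mfap4 had 36.1, 22.7 and 20.8 CPM in FGFRi and 3.97, 4.26 and 12.1 CPM in DMSO, with DMSO 3 apart from the other DMSO libraries. It had 21.2 and 22.3 CPM in HOM, 9.30 and 11.2 CPM in HET, and 7.97 and 7.77 CPM in WT. The changes were 2.06 ± 0.30 in FGFRi (adjusted p = 0.000307, edgeR) and 1.28 ± 0.27 in HOM (adjusted p = 0.0114). Mfap4 shares 89 exon bases with Mapk7 on the opposite strand, whose counts were 187% of its own. Whether counting used strand was not stated, so the Mfap4 level is uncertain. Fbln5, fibulin-5, which is needed for elastic fibre assembly in mice, had 8.43, 6.47 and 6.68 CPM in FGFRi and 1.27, 1.40 and 2.95 CPM in DMSO. It had 3.43 and 3.63 CPM in HOM, 3.33 and 3.61 CPM in HET, and 2.85 and 2.05 CPM in WT. Fbln5 rose in FGFRi (2.01 ± 0.29, adjusted p = 0.000251) and was not called in HOM (0.27 ± 0.27, adjusted p = 0.656). Mfap5, at 6.23, 4.96 and 4.09 CPM in FGFRi and 1.11, 0.935 and 2.62 CPM in DMSO, followed the same course, again with DMSO 3 the highest control.

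Fbn2 and Mfap2, both microfibril components, rose by 0.94 each in FGFRi, and Emilin1, found where elastin meets microfibrils, rose by 0.66. Mfap2 and Emilin1 also rose in HOM, by 0.55 and 0.76.

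Fbn1, Fbln1 and Fbln2 changed less in FGFRi. Fbn1, fibrillin-1, had 185, 152 and 149 CPM in FGFRi and 133, 122.6 and 114 CPM in DMSO, a change of 0.39 ± 0.099 (adjusted p = 0.0118, edgeR). It had 204 and 205 CPM in HOM, 182 and 192 CPM in HET, and 126 and 158 CPM in WT. Fbln1 had 83.2, 75.4 and 69.2 CPM in FGFRi and 65.3, 46.4 and 61.1 CPM in DMSO. It had 88.9 and 94.8 CPM in HOM, 64.8 and 78.2 CPM in HET, and 66.2 and 72.8 CPM in WT. Its FGFRi change of 0.41 was not called without FGFRi 1, without DMSO 2 or with sex as a covariate. Fbln2 was the exception of the group, with 137, 162 and 124 CPM in FGFRi, overlapping 152, 143 and 141 CPM in DMSO (-0.042 ± 0.091, adjusted p = 0.798). It had 116 and 125 CPM in HOM, below 134 and 139 CPM in HET and 151 and 171 CPM in WT, and fell in HOM against WT (-0.41 ± 0.11, adjusted p = 0.0322).

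Among the 5 proteoglycans, 4 rose in FGFRi. Bgn, biglycan, a small leucine-rich proteoglycan that binds type I collagen, had 146, 106 and 92.5 CPM in FGFRi and 31.0, 35.7 and 41.5 CPM in DMSO. All 3 FGFRi libraries lay well above the highest DMSO library, and the change was 1.66 ± 0.14 (adjusted p = 4.86e-06, edgeR). Bgn had 75.8 and 81.8 CPM in HOM, 66.6 and 58.8 CPM in HET, and 39.3 and 40.9 CPM in WT, in that order without overlap. Its relatives decorin (Dcn) and lumican (Lum) rose by 1.33 and 1.02. Vcan, versican, a large hyaluronan-binding proteoglycan of provisional matrix, had 396, 302 and 273 CPM in FGFRi and 225, 195 and 197 CPM in DMSO, a change of 0.65 ± 0.13 (adjusted p = 0.00286). It had 308 and 254 CPM in HOM, 211 and 239 CPM in HET, and 215 and 272 CPM in WT. Its HOM libraries lay above both HET libraries, and WT overlapped both groups. Ogn, osteoglycin, had 8.24, 7.55 and 10.7 CPM in FGFRi and 3.18, 5.35 and 5.57 CPM in DMSO. It had 5.19 and 1.98 CPM in HOM, 5.37 and 3.77 CPM in HET, and 2.998 and 4.10 CPM in WT. Its FGFRi change of 0.90 ± 0.31 had an adjusted p of 0.0523.

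Matricellular proteins signal to cells more than they bear load, and they did not move as a block. Of 7, 2 rose and 1 fell in FGFRi, and 3 rose and 1 fell in HOM. Sparc, which binds collagen, and Thbs2, thrombospondin-2, rose in both comparisons. Thbs2 had 67.2, 50.3 and 46.0 CPM in FGFRi and 25.6, 25.4 and 24.6 CPM in DMSO (1.09 ± 0.12, adjusted p = 3.86e-05, edgeR). It had 49.3 and 50.8 CPM in HOM, 40.2 and 36.7 CPM in HET, and 27.5 and 32.2 CPM in WT.

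Thbs1, thrombospondin-1, an activator of latent TGF-beta, did not follow Thbs2. It had 273, 282 and 301 CPM in FGFRi and 281, 347 and 307 CPM in DMSO (-0.13 ± 0.080, adjusted p = 0.284, edgeR). It had 164 and 162 CPM in HOM, against 253 and 249.8 CPM in HET and 289 and 277 CPM in WT. HOM libraries were the lowest of all 12, and Thbs1 fell in HOM by 0.71 (SE 0.087, adjusted p = 0.000399). Its HOM change was -0.56 with library totals (adjusted p = 0.187) and -0.47 with sex as a covariate (adjusted p = 0.212). The count of Thbs1 per count of Thbs2 was 4.06 to 6.54 in FGFRi and 10.97 to 13.7 in DMSO. It was 3.32 and 3.195 in HOM, 6.29 and 6.81 in HET, and 10.53 and 8.60 in WT.

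Crispld2, a secreted glycoprotein of the CAP family, moved in opposite directions. It had 15.2, 12.2 and 6.08 CPM in FGFRi and 31.0, 21.4 and 35.9 CPM in DMSO, and fell by 1.49 (SE 0.25, adjusted p = 0.000803, edgeR). It had 79.1 and 86.9 CPM in HOM, 28.6 and 26.8 CPM in HET, and 17.04 and 19.1 CPM in WT, and rose in HOM by 1.89 ± 0.21 (adjusted p = 0.000149). FGFRi was thus the lowest and HOM the highest of the 5 groups. With sex as a covariate the HOM change of Crispld2 was 1.25 (adjusted p = 0.143). The FGFRi effect minus the HOM effect was -3.38 ± 0.33 (adjusted p = 4.43e-05).

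Spon2, spondin-2, had 29.3, 33.7 and 37.0 CPM in FGFRi and 31.1, 43.8 and 34.3 CPM in DMSO, which overlapped. It had 15.8 and 14.7 CPM in HOM, 29.9 and 27.9 CPM in HET, and 12.1 and 12.1 CPM in WT. HET exceeded WT by 1.26 ± 0.16 (adjusted p = 0.00124, edgeR), HOM lay below HET by 0.93 (adjusted p = 0.00510), and DMSO exceeded WT by 1.62 ± 0.15 (adjusted p = 9.62e-06). Of the 41 genes, Spon2 was the one called between the DMSO and WT controls. Others did not overlap but were not called, such as Eln and Col1a1 (lower in DMSO) and Tnc and Crispld2 (higher in DMSO). Their adjusted p-values ran from 0.147 (Tnc) to 0.854 (Col1a1) in edgeR's test. Groups this small can separate by chance, and how many of all genes did so was not counted. Tnc, tenascin-C, had 78.8, 55.3 and 46.5 CPM in FGFRi and 31.6, 58.8 and 38.8 CPM in DMSO. It had 20.1 and 23.7 CPM in HOM, 42.7 and 47.0 CPM in HET, and 28.7 and 25.0 CPM in WT, and HOM against HET gave -1.02 ± 0.24 (adjusted p = 0.0518). Postn, periostin, had 63.2, 52.8 and 54.3 CPM in FGFRi, 40.5, 54.7 and 52.8 CPM in DMSO, 49.2 and 43.6 CPM in HOM, 44.6 and 48.8 CPM in HET, and 50.5 and 45.1 CPM in WT. FGFRi overlapped DMSO, HOM overlapped HET and WT, and Postn passed neither main test.

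Cross-linking enzymes and Fap all rose in FGFRi, 4 of 4. Lox, lysyl oxidase, which oxidises lysines of collagen and elastin, had 84.3, 61.1 and 59.9 CPM in FGFRi and 13.03, 15.9 and 13.3 CPM in DMSO. Its change of 2.23 ± 0.16 was the largest of the 41 genes (adjusted p = 1.74e-06, edgeR). Lox had 33.9 and 27.5 CPM in HOM, 26.9 and 21.0 CPM in HET, and 12.3 and 16.8 CPM in WT, a HOM change of 0.72 ± 0.16 (adjusted p = 0.0150). Loxl1, which acts on elastin, rose by 1.35 ± 0.15 in FGFRi. Loxl2 had 40.9, 48.0 and 30.7 CPM in FGFRi and 32.1, 25.3 and 20.5 CPM in DMSO, which overlapped. It had 40.7 and 33.5 CPM in HOM, 42.2 and 31.0 CPM in HET, and 26.0 and 29.7 CPM in WT. Its FGFRi change of 0.60 ± 0.18 (adjusted p = 0.0272) lost its call without any of 4 libraries (FGFRi 1, FGFRi 2, DMSO 2 or DMSO 3). Fap, fibroblast activation protein, rose by 0.86 in FGFRi and 0.71 in HOM.

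**Figure D3:**
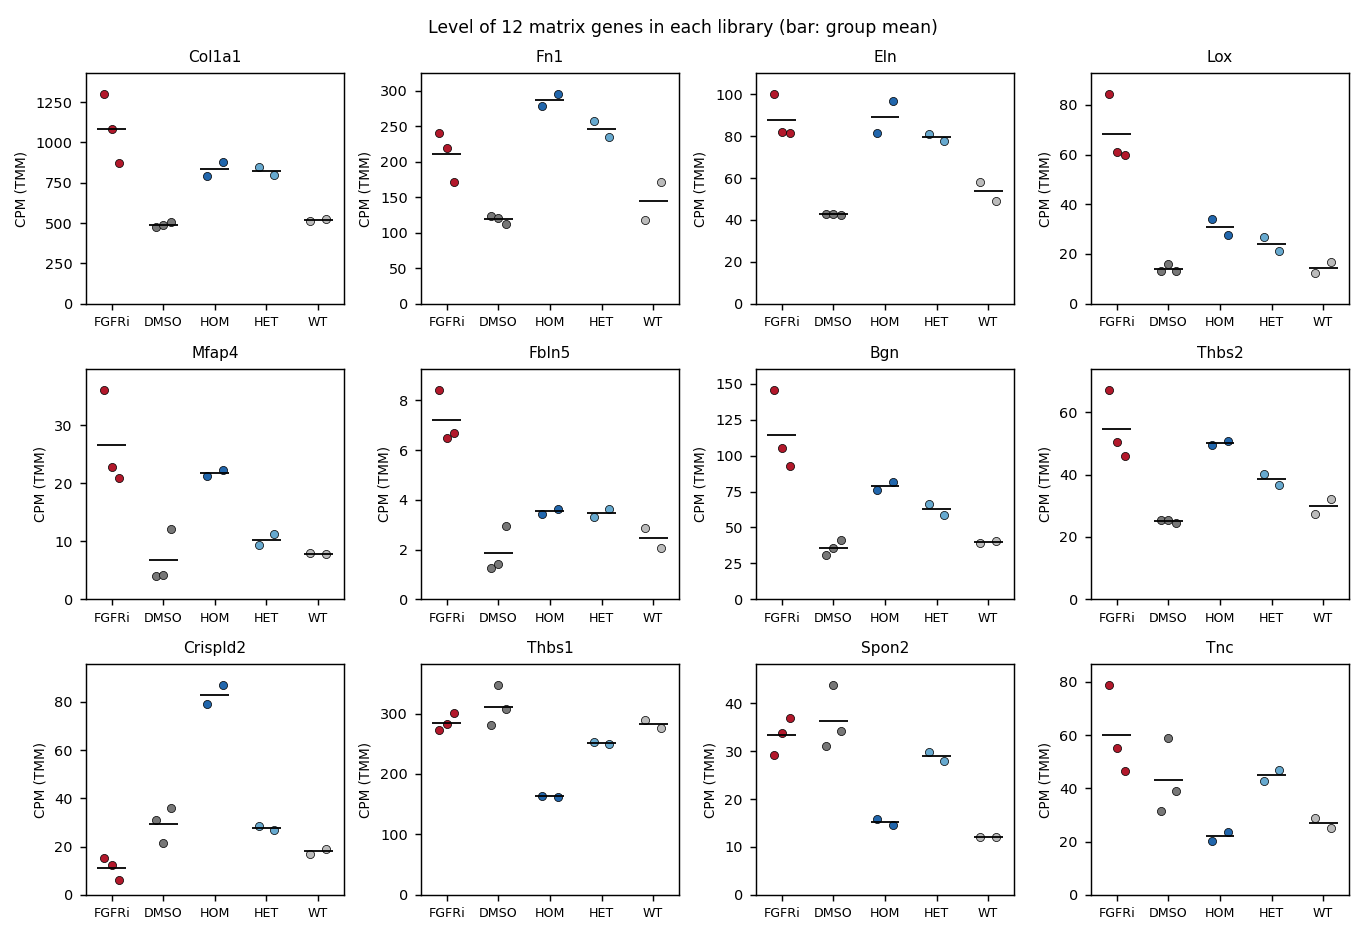
TMM-scaled CPM of 12 of the 41 genes in each library, with 1 point per library and a bar at the group mean. Col1a1, Fn1 and Eln are high in FGFRi, HOM and HET, Lox, Fbln5 and Bgn are highest in FGFRi, Crispld2 and Thbs1 stand apart in HOM, and Spon2 is high in FGFRi, DMSO and HET.

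To ask which genes exceeded or lagged the common mesenchymal rise, libraries were scaled so that the mean log2 CPM of the 16 mesenchymal genes was equal. That mean had risen by 1.27 (log2) in FGFRi against DMSO and by 0.54 in HOM against its controls, and the scaling was taken as exact. Single mesenchymal genes varied widely around it, between 0.34 (Pdgfrb) and 3.05 (Twist2) in FGFRi and between -0.80 (Ebf2) and 1.14 (Cxcl12) in HOM. Each gene had equal weight in the mean, low ones included. Twist2 averaged 2.44 CPM in FGFRi and 0.230 CPM in DMSO, and Ebf2 0.408 CPM in HOM and 0.790 CPM in its controls. Relative to the mean, 4 matrix genes were higher in FGFRi, namely Lox, Mfap4, Fbln5 and Bgn, and 26 were lower. Of the 16 mesenchymal genes themselves, 3 were called higher and 3 lower by the same test. A call thus also arose among the genes that set the scale. By their TMM-scaled FGFRi change, 0 matrix genes lay above all 16 mesenchymal genes and 7 lay below all 16. On that scale 0.876% of all genes were higher and 81.4% lower, since most genes did not share the rise. In HOM, 2 matrix genes were higher than the mesenchymal mean, Crispld2 and Mfap4, and 10 were lower, where 0.952% of all genes were higher and 55.5% lower. Of the 16 mesenchymal genes, 1 was called higher and 0 lower in HOM. The median matrix gene stood at -0.47 in FGFRi and -0.17 in HOM, against -1.27 and -0.54 over all genes.

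The genes that exceeded the mesenchymal mean in FGFRi were ahead of it by 0.98 ± 0.17 for Lox, 0.79 ± 0.24 for Mfap4, 0.76 ± 0.30 for Fbln5 and 0.39 ± 0.15 for Bgn. Their adjusted p-values were 5.04e-06, 0.00324, 0.0225 and 0.0204 (edgeR). Since 81.4% of all genes were called lower on this scale, the adjustment changed p-values little. The unadjusted p-values were 0.0177 for Fbln5 and 0.0159 for Bgn, so these calls are less strict than those on the TMM scale. Of the 4 genes ahead of the mean, 1 stayed called without DMSO 2, and Lox alone kept its call in all 26 alternatives. Dcn and Loxl1 rose with the mean, at 0.061 ± 0.17 and 0.10 ± 0.17 from it. Those furthest behind in FGFRi were Crispld2 (-2.73), Col12a1 (-1.39), Thbs1 (-1.39), Spon2 (-1.37), Fbln2 (-1.31), Col5a3 (-1.19) and Postn (-1.06). Of type I collagen, Col1a1 lay near the mean at -0.14 ± 0.17, and Col1a2 stood at -0.36 ± 0.17, both without a call. Col1a2 just missed it (adjusted p = 0.0530, edgeR) and was as far behind as Fbn2 (-0.35), which was called. Where the summed counts of the mesenchymal genes set the scale in place of their mean log2 level, 7 matrix genes were higher and 14 lower in FGFRi. With the Zeb and Twist genes taken out of the mesenchymal list, 4 were higher and 18 lower.

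In HOM glands, Crispld2 stood 1.35 ± 0.20 and Mfap4 0.73 ± 0.22 above the mesenchymal mean, but with sex as a covariate Mfap4 stood at -0.16. Behind it were Thbs1 (-1.25), Tnc (-1.21), Spon2 (-0.84), Fbln2 (-0.84), Ogn (-0.76), Col12a1 (-0.69), Col11a1 (-0.59), Col14a1 (-0.58), Postn (-0.57) and Col16a1 (-0.47). All 10 had adjusted p-values between 4.19e-05 and 0.0431 (edgeR). Without HOM 1 the counts were 1 higher and 8 lower, without HOM 2 they were 1 and 2, and with sex as a covariate 0 and 0, with counts at an unadjusted p under 0.05 of 1 and 4 in edgeR's test. Against HET alone, 1 was higher and 3 were lower.

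The inhibitor and the deletion differed for 10 of the 41 genes. The FGFRi effect minus the HOM effect was positive for 9, where 1.36% of all genes were called positive, and negative for Crispld2, where 1.41% were called negative. The largest positive differences were those of Fbln5 (1.74 ± 0.40), Lox (1.52 ± 0.23), Bgn (1.00 ± 0.20) and Loxl1 (0.86 ± 0.21), with adjusted p-values of 0.0323, 0.00293, 0.0178 and 0.0414 (edgeR). Col1a1, Col14a1, Col16a1, Eln and Thbs1 differed by 0.58 to 0.79. Thbs1 belonged here because it fell in HOM. The deletion contrast includes HET glands, whose matrix was itself raised. These differences are on the TMM scale, where the mean of the 16 mesenchymal genes rose by 1.27 in FGFRi and by 0.54 in HOM. They were not taken relative to that mean, and their median over the 41 genes was 0.49. The count was 6 without FGFRi 1, 5 without DMSO 1, 3 and 2 without HOM 1 and HOM 2, 6 without HET 2 and 4 without WT 1. The calls for Crispld2 and Lox were kept in all 23 alternatives of this test.

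**Figure D4:**
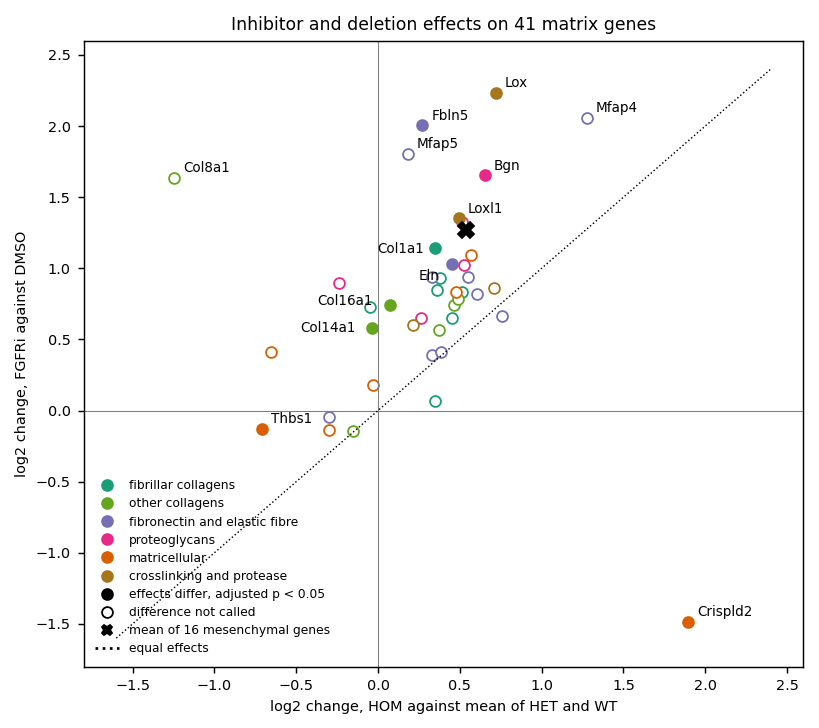
Log2 change in FGFRi against DMSO (vertical) plotted against the log2 change in HOM against the mean of HET and WT (horizontal) for each of the 41 genes. Filled points are the 10 genes whose effects differed at an adjusted p under 0.05, the dotted line marks equal effects, and the cross marks the mean of the 16 mesenchymal genes. Crispld2 stands alone at lower right, and Lox, Fbln5 and Bgn at the top.

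Ratios of counts within a library do not depend on the scaling between libraries, and they differed between the groups. They were chosen after the levels had been seen and are given without a test. Fibrillar collagens took 50.5% to 52.2% of the matrix counts in FGFRi and 46.0% to 46.8% in DMSO. They took 50.2% and 51.4% in HOM, 52.1% and 51.0% in HET, and 47.9% and 46.0% in WT. Matricellular genes took 10.6% to 12.2% in FGFRi and 14.7% to 17.3% in DMSO, then 9.81% and 9.94% in HOM, 10.7% and 11.1% in HET, and 13.8% and 12.7% in WT. In FGFRi, HOM and HET glands the fibrillar share was thus larger and the matricellular share smaller than in DMSO and WT glands. These are shares of the matrix counts, not levels.

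Other ratios separated FGFRi from the rest. Col1a1 per Col1a2, the chains that join in type I collagen, was 1.40, 1.39 and 1.28 in FGFRi and 1.14, 1.17 and 1.21 in DMSO. It was 1.15 and 1.19 in HOM, 1.18 and 1.23 in HET, and 1.18 and 1.20 in WT, so the lowest FGFRi library lay above all 9 others. Col3a1 per Col1a1 was 1.12, 1.09 and 1.16 in FGFRi, below all others, which ran from 1.27 to 1.45. Lox per Col1a1 was 0.0649, 0.0564 and 0.0687 in FGFRi and 0.0275, 0.0324 and 0.0261 in DMSO, with 0.0239 to 0.0430 in the cross. Tnc per Fn1 separated HOM, at 0.0721 and 0.0803, from 0.165 and 0.200 in HET and 0.243 and 0.145 in WT.

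**Figure D5:**
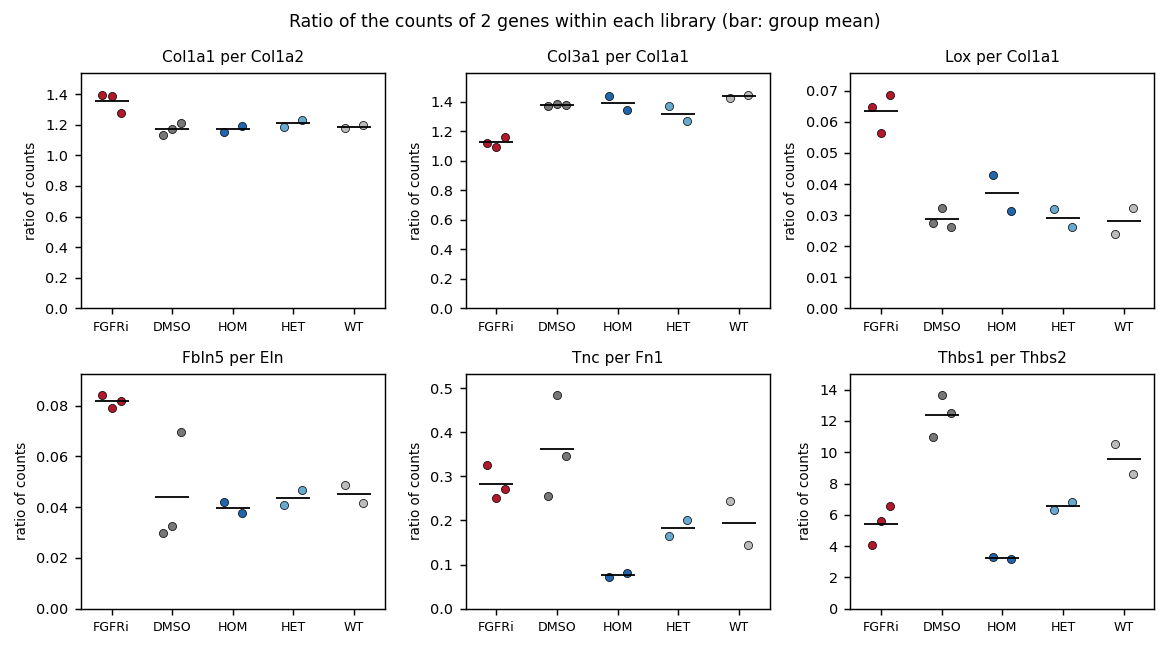
Ratio of the counts of 2 genes within each library, 1 point per library with a bar at the group mean. Col1a1 per Col1a2 and Lox per Col1a1 are highest and Col3a1 per Col1a1 is lowest in the 3 FGFRi libraries, and Tnc per Fn1 is lowest in both HOM libraries.

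Genes that build and process collagen moved in part. Of 26 tested genes of collagen synthesis and processing, 10 rose and 2 fell in FGFRi, with a median log2 change of 0.24, and 7 rose in HOM, also with a median of 0.24. Of all genes, 9.73% rose and 10.7% fell in FGFRi, and 3.44% rose and 2.44% fell in HOM. P3h3 (0.68) and P3h1 (0.70), prolyl 3-hydroxylases, Fkbp10 (0.88), a collagen chaperone, and Adamts2 (1.09), the procollagen N-proteinase, rose in FGFRi. Of 15 tested TGF-beta pathway and target genes, 5 rose in FGFRi, among them Tgfbi (1.43), Tgfb2 (1.00), Tgfb3 (0.94) and the receptor Tgfbr2 (0.36). In HOM 1 of these 15 rose and 2 fell. Of 6 tested small leucine-rich proteoglycans outside the 41 genes, Kera (1.33) and Prelp (0.47) rose in FGFRi.

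Markers of some other cell types moved as well, where 9.73% of all genes rose and 10.7% fell in FGFRi, and 3.44% rose and 2.44% fell in HOM. All 14 tested skeletal muscle genes rose in FGFRi and 7 in HOM, with summed levels of 194 to 850.3 CPM in FGFRi, 30.7 to 94.9 CPM in DMSO, 227 to 249.6 CPM in HOM and 16.4 to 223 CPM in HET and WT. Of 7 Schwann cell and glial genes, 5 rose in FGFRi, while Erbb3 fell (-0.48). Of 8 tested cartilage genes 4 fell in FGFRi and 1 rose in HOM, with summed levels of 144 to 199.9 CPM in FGFRi and 296 to 368 CPM in DMSO. The 4 that fell were Col9a1 (-1.16), Col9a3 (-0.77), Col9a2 (-0.82) and Col2a1 (-1.82). Col2a1 was also the gene that rose in HOM (1.38), with means of 30.4 CPM in HOM, 12.5 CPM in its controls, 2.63 CPM in DMSO and 0.674 CPM in FGFRi. Of 5 tested bone genes, Runx2 rose (0.45) and Dmp1 fell (-2.55) in FGFRi, with Dmp1 at means of 0.268 CPM in FGFRi and 1.52 CPM in DMSO. Bone genes summed to 60.9 to 63.8 CPM in FGFRi and 41.8 to 101.5 CPM in DMSO, where Spp1 varied widely (23.3 ± 29.7 CPM, SD). Of 5 tendon genes, Kera rose (1.33) and Tnmd fell (-1.49) in FGFRi, and the tendon factor Scx averaged 1.31 CPM in FGFRi and 1.29 CPM in DMSO. Of 7 smooth muscle and myoepithelial genes 3 fell in FGFRi. Of 8 macrophage genes 0 were called in FGFRi or in HOM, and they summed to 21.5 to 40.9 CPM in FGFRi and 19.4 to 40.2 CPM in DMSO. The part of muscle and glial RNA in the matrix changes was not tested.

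Promoters are shown for 4 genes that illustrate the different courses: Col1a2, which rose with the other fibrillar collagens, Bgn and Fbln5, which were ahead of the mesenchymal mean in FGFRi, and Crispld2. The 150 bases before each start site come from RefSeq on GRCm38.p6, a build other than that of the counts, and capitals mark CCAAT boxes and GC boxes (GGGCGG or its complement CCGCCC).
Col1a2 (chr6:4505468-4505617, plus strand): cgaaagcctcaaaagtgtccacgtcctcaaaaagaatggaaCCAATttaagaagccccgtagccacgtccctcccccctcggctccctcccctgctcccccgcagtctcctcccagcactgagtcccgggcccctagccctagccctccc
Bgn (chrX:73483451-73483600, plus strand): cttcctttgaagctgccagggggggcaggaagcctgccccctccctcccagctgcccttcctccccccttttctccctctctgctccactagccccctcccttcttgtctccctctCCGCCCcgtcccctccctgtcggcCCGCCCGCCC
Fbln5 (chr12:101819120-101819269, minus strand): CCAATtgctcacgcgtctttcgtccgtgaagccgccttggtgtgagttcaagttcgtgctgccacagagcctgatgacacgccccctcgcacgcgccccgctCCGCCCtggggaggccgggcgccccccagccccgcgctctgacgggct
Crispld2 (chr8:119992288-119992437, plus strand): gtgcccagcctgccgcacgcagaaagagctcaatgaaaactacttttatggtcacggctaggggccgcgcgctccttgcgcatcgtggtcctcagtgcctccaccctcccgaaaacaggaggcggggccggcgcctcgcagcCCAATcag
Of the 41 genes, 24 matched the table, with 30 promoters. Within 250 bases upstream on both strands, CCAAT was in 30% of these and in 33.85% of all 32851 promoters, and GGGCGG in 56.67% and 32.74%. TATAAA was in 20% and 12.37%, GGAATG, a TEAD-type motif, in 13.33% and 12.64%, and TGANTCA, an AP-1-type motif, in 3.333% and 6.749%. These are matches of letters and were not tested as binding sites.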

How the data were processed

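Whole salivary glands were sequenced after depletion of ribosomal RNA. The authors deposited 1 table of raw read counts per gene identifier for the 12 libraries. STAR, bcl2fastq and GRCm39 are named per the submitters' processing notes. The counting tool, annotation and use of strand: not given in the sources used here. Symbols came from a GENCODE M21 table (52403 of 52636 identifiers). Groups follow the labels.

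Counts were fitted with edgeR 4.0.16 in R 4.3.3: 1 coefficient per group over all 12 libraries, TMM scaling, filterByExpr (minimum count 10, total 15) and the quasi-likelihood test. P-values were adjusted by Benjamini-Hochberg over 15859 genes and called under 0.05. For fits relative to the mesenchyme, libraries were scaled to equal mean log2 CPM of the mesenchymal genes (prior count 0.5). The scripts were tested on simulated data. No libraries were duplicates, and same-numbered replicates did not vary together. Total counts limit the precision of low genes.

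The members and all lists were chosen with earlier results of these data known. Values in every library are given for the largest and smallest FGFRi change of each role (at least 5 CPM in 1 group) and for members called relative to the mesenchyme, up to 12 in each direction. Up to 4 genes are named by p in FGFRi against DMSO from the lists of collagen processing, TGF-beta, other proteoglycans, cartilage and bone. Genes named from the mesenchymal and pan-epithelial lists, and Erbb3 and Scx, were not picked by that rule. Alternatives covered scaling, filter, DESeq2 1.42.0, limma-voom (limma 3.58.1), a replicate block, sex, controls, the mesenchymal list and each library left out; a crossed block and a pair of further mesenchymal scales were chosen after seeing the data.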

Additional observations from a re-analysis of the deposited data

Results flagged for a closer look

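The 10 genes below had effects of the inhibitor (FGFRi against DMSO) and of the deletion (HOM against the mean of HET and WT) that differed by a test of the difference itself, in edgeR with adjustment over all genes. Crispld2 had the only negative difference among them, -3.38 (adjusted p = 4.43e-05). The positive differences were 1.74 for Fbln5 (adjusted p = 0.0323), 1.52 for Lox (0.00293), 1.00 for Bgn (0.0178) and 0.86 for Loxl1 (0.0414). They were 0.79 for Col1a1 (0.0262), 0.67 for Col16a1 (0.0302), 0.62 for Col14a1 (0.0246), 0.58 for Eln (0.0399) and 0.58 for Thbs1 (0.0173). HOM libraries were all female and their controls all male, so a part of sex in these differences cannot be told apart from the deletion. With sex as a covariate 5 of the 41 genes were called. That sex term came only from DMSO 2 against the other DMSO libraries, so it does not settle this. All 10 differences are on the TMM scale, where the mean of the 16 mesenchymal genes rose by 1.27 in FGFRi and by 0.54 in HOM. Groups of 2 and 3 libraries are too small for a check of single libraries against their group.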

How the results depend on the processing

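The FGFRi rise was the steadiest result, with 28 to 40 genes higher and 1 lower in each alternative, and 25 of the 31 rising genes kept their call in all 24. The HOM count of 17 higher became 31 with epithelial scaling, 1 against HET alone and 0 with sex as a covariate, and ran from 2 to 22 when a library was left out. The HOM count of 1 lower was 0 with library totals or sex, 2 without the filter, with DESeq2, against WT alone or HET alone, 3 with the compared groups alone, and 1 to 2 without a library. HET against WT (10) gave 21 without the filter, 17 with the compared groups alone and 1 to 14 without a library. DMSO against WT (1) gave 3 with library totals or sex, 7 with epithelial scaling, 5 without the filter and 1 to 2 without a library. The inhibitor minus deletion count (10) was 2 with library totals, 4 with epithelial scaling, 18 without the filter, 5 with sex and 2 to 15 without a library. Relative to the mesenchyme, FGFRi gave 4 higher and 26 lower: with sex 1 higher, with the compared groups alone 2, with summed mesenchymal counts 7 higher and 14 lower, and without a library 1 to 5 higher and 22 to 27 lower. HOM (2 higher, 10 lower) gave 0 and 0 with sex, 1 and 3 against HET alone, and 1 to 2 higher and 2 to 11 lower without a library. Epithelial scaling turned positive the FGFRi changes of Col12a1 (0.31), Fbln2 (0.40), Spon2 (0.32) and Thbs1 (0.31) and the HOM changes of Col14a1 (0.39) and Postn (0.40), and sex turned the relative HOM change of Mfap4 to -0.16. The cause was not tested. The replicate numbers did not pair the libraries: same-number correlations were -0.092, -0.117 and -0.025 for FGFRi and DMSO. With the replicate block 31 rose and 1 fell in FGFRi, 16 rose and 1 fell in HOM, 9 were called in HET, 1 in DMSO against WT, 8 in the difference, and 3 higher and 23 lower (FGFRi) and 2 and 10 (HOM) relative to the mesenchyme. With the WT numbers crossed, HOM gave 19 and 1 and HET 11.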
